A study of Mus musculus with 30 samples.

Results

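The response of Braf-mutant, Arid1a-deleted mouse thyroid cells to a MEK inhibitor was measured in 6 of the 28 RNA-seq libraries of a study on SWI/SNF chromatin remodelling in thyroid tumours. All 6 came from mice that carry Braf(V600E) together with an Arid1a knockout (KO). Of these, 3 libraries (numbered 2, 4 and 5) were from mice given the MEK inhibitor CH5126766, abbreviated CKI, for 8 days, and 3 libraries (numbered 1, 2 and 3) were from mice given vehicle for 8 days; mice were killed about 2 h after the last dose. The libraries were chosen by their group labels alone, and 19016 of the 33924 genes in the count table were expressed highly enough to be tested. Values from 4 other groups of 3 libraries each are set beside them: CKI-treated and vehicle-treated Braf(V600E) thyroids in which Arid1a was not deleted, thyroids labelled untreated Arid1a KO without mutant Braf, and untreated wild-type thyroids. Thyroids were dissociated and YFP-positive cells were sorted, per the labels, although the same labels also describe frozen thyroids for the wild-type mice. The Cre driver, the form of the Braf allele, and the age and sex of the mice are not given in the sources used here, and nothing says whether the libraries of a group came from separate mice. P-values therefore describe only the scatter among the sequenced libraries. The sex-linked RNA given below differed between CKI libraries 4 and 5, so these were not repeats of the same material. How much of the scatter is technical is not known.

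Thyroid follicular cells take up iodide, attach it to tyrosines of thyroglobulin with hydrogen peroxide made at the apical membrane, and release thyroid hormone from that store. Mutant Braf keeps the kinases MEK and ERK active, and thyroid tumours with this mutation commonly lose expression of the iodide-handling genes, whereas MEK inhibitors can bring part of it back, an approach called redifferentiation therapy. Arid1a encodes the DNA-binding subunit that defines the canonical BAF form of SWI/SNF, a complex that moves nucleosomes. The study asked whether such mutations alter tumour progression and the response to this therapy.

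Levels are given as counts-per-million (CPM) values of each library's effective size. The targeted gene, Arid1a, kept reads in every KO group, and which exons are deleted is not given in the sources used here. Arid1a had 29.3, 28.4 and 19.00 CPM in CKI libraries and 15.9, 15.2 and 11.98 CPM in vehicle libraries, beside 27.3, 24.8 and 21.7 CPM in libraries labelled untreated Arid1a KO and 27.9, 39.8 and 34.8 CPM in wild type. It did not pass the test between CKI and vehicle (log2 fold change 0.83, SE 0.42, adjusted p = 0.269). Total counts were 24732943 to 32510940 per library, so that 3 counts correspond to 0.091 to 0.122 CPM. The first principal component of the 6 libraries (40.6% of the variance) separated CKI from vehicle, and the second (23.6%) set CKI library 5 apart from CKI libraries 2 and 4. CKI library 5 also had the lowest summed level of 8 general leukocyte markers, 423, 365 and 151 CPM in CKI libraries 2, 4 and 5 against 460.4, 981 and 1065 CPM in vehicle libraries 1, 2 and 3. It had the highest mean log2(CPM + 1) of 16 immediate early genes, 7.93, 9.28 and 10.43 in CKI against 9.26, 9.15 and 8.85 in vehicle. Over 4 Y-linked genes, CKI libraries 2, 4 and 5 had 27.8, 247 and 1.396 CPM and vehicle libraries 1, 2 and 3 had 0.063, 12.5 and 0.0303 CPM. Xist, which female cells express, had 216, 2.29 and 180.4 CPM in the same CKI libraries and 225, 122 and 157 CPM in the same vehicle libraries. CKI library 2 and vehicle library 2 thus carried both signals, and CKI library 4 mainly the Y-linked one. The part of these differences in the results was not tested beyond the values given without a library or with a covariate.

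Genes of thyroid hormone synthesis and iodide handling, such as Slc5a5, Tg and Dio1, rose with CKI, whereas Spp1 (osteopontin), the basophil protease Mcpt8 and the ERK targets Etv5 and Ccnd1 fell. Of 19016 genes tested, 858 differed between CKI and vehicle at an adjusted p under 0.05 (4.51%, edgeR quasi-likelihood test with Benjamini-Hochberg adjustment), with 477 higher (2.51%) and 381 lower (2.00%) with CKI. The median log2 fold change of all genes was 0.03. Leaving out 1 library at a time gave 256 to 756 calls. The number of calls fell by more than 1.5 times without CKI library 2 (435), CKI library 5 (378), vehicle library 1 (377), vehicle library 2 (403) or vehicle library 3 (256). Of the 83 named genes called here, 51 lost the call with the leukocyte level as a covariate, among them Slc5a5, Kit, Il18rap, Krt20, Notch1, Cd14 and Calcb, and 36 lost it with only the 2 groups fitted, among them Slc5a5, Pdzrn3, Casr and Notch1. The leukocyte level itself separated the groups, at a mean log2(CPM + 1) of 2.94 to 5.33 in CKI and 5.38 to 6.76 in vehicle. A fit with that covariate therefore cannot separate the leukocyte level from the drug.

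**Figure D1:**
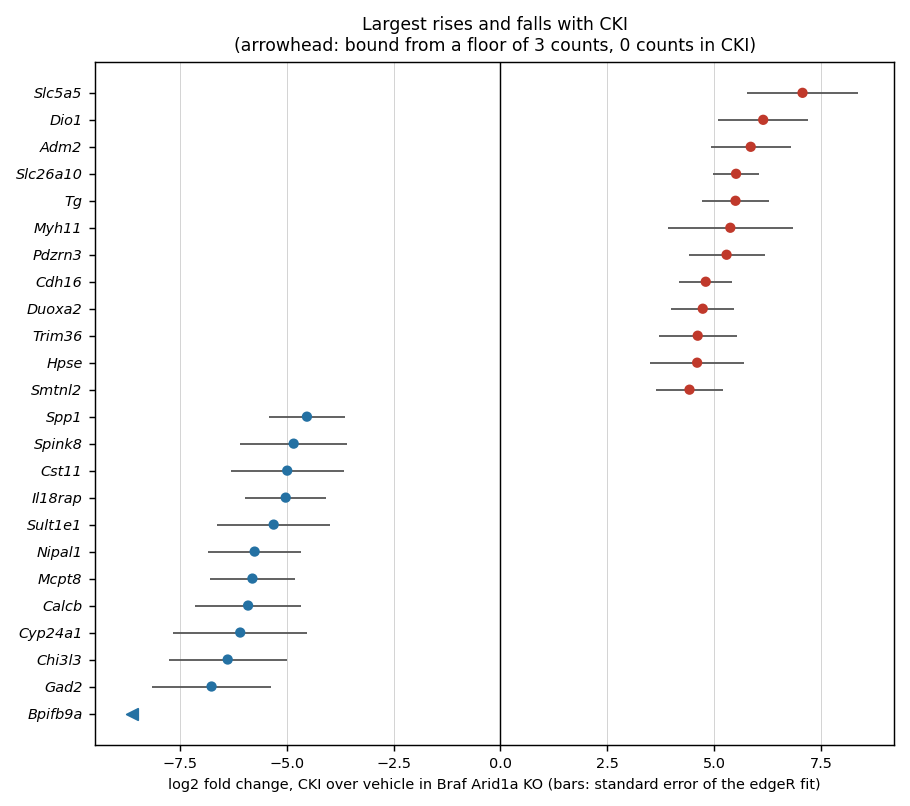
Log2 fold changes (x axis, CKI over vehicle, with SE) of the named genes that rose or fell most in Braf(V600E) Arid1a KO thyroid cells, 3 libraries per group. The arrowhead for Bpifb9a, with 0 counts in CKI, is a bound from a floor of 3 counts. The rises include Slc5a5 (7.06), Dio1 (6.14) and Tg (5.50), and the falls include Gad2 (-6.76), Mcpt8 (-5.80) and Spp1 (-4.53).

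Sequence around the start sites of the genes that rose is shown first for the sodium iodide symporter and for a pair of neighbouring genes that make hydrogen peroxide together. These windows run from 250 bases before to 50 bases after the start, are written 5′ to 3′ on the gene's strand, and come from RefSeq on GRCm38.p6, which had entries for 22 of 37 genes looked up. The windows are Slc5a5 at chr8:70892708-70893007 (minus strand), Duox2 at chr2:122298178-122298477 (minus strand) and Duoxa2 at chr2:122298650-122298949 (plus strand). The windows of Duox2 and Duoxa2 point away from each other with 172 bases between them. Capitals mark a match, on either strand, to CTCAAG, the core bound by NKX2-1-type homeodomain factors, in Duox2, and to the AP-1 motif TGANTCA in Duoxa2.
Slc5a5: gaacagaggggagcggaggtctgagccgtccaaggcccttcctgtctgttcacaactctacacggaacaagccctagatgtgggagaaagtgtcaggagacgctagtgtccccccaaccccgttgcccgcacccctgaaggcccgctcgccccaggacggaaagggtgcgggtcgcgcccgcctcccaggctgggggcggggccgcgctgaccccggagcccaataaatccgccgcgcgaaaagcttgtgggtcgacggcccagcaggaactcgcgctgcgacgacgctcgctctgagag
Duox2: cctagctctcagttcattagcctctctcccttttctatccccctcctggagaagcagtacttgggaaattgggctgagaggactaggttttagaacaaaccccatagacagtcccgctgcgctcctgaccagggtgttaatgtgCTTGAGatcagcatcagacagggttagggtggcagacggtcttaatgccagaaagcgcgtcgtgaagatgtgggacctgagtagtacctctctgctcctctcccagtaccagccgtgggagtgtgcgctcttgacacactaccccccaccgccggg
Duoxa2: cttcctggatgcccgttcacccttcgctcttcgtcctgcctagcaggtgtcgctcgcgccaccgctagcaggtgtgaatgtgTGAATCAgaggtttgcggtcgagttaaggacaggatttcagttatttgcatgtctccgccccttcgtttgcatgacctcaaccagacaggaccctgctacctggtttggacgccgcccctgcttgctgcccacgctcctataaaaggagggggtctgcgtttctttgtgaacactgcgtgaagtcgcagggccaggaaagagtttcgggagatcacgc
The window of Slc5a5 holds neither motif, and none of the 3 windows holds TGACGTCA (cAMP response element) or CCGGAAGT (ETS). Among other genes that rose, the windows of Dio1, Adm2, Slc26a10, Pdzrn3, Pax8, Iyd and Lrp2 hold none of these motifs. A window of Etv1, which fell, holds 2 matches to CTCAAG. Among 32851 RefSeq promoter windows of this length, 15.9% hold CTCAAG, 7.81% hold TGANTCA, 1.79% hold TGACGTCA and 3.89% hold CCGGAAGT, and each match is given as a description and not as a binding site.

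Of the 16 genes of a thyroid differentiation list, 8 rose with CKI and 0 fell, beside 2.51% of all genes higher and 2.00% lower. The list's median log2 fold change was 1.77, against 0.03 over all genes. The 3 CKI libraries stood above the 3 vehicle libraries with no overlap in 11 of the 16, against 13.3% of all genes. Slc5a5, the symporter that brings iodide into the cell, had 68.4, 6.86 and 539 CPM in CKI libraries and 1.08, 2.44 and 1.09 CPM in vehicle libraries (log2 fold change 7.06, SE 1.30, adjusted p = 0.00404). The CKI libraries lay above every vehicle library but differed widely among themselves, with library 4 the lowest and library 5 the highest. The log2 fold change of Slc5a5 was 4.62 without CKI library 5, and its adjusted p was 0.0610 with only the 2 groups fitted and 0.0831 under the leukocyte covariate. Tg, thyroglobulin, had 27539, 20959 and 30118 CPM with CKI and 193, 797 and 749.9 CPM with vehicle, a 45.2-fold difference (log2 fold change 5.50, SE 0.78, adjusted p = 0.000509). Here the CKI libraries were close together. Dio1, the deiodinase that converts thyroxine to the active hormone, had 169, 33.6 and 199 CPM with CKI and 1.81, 0.937 and 2.88 CPM with vehicle (log2 fold change 6.14, SE 1.05, adjusted p = 0.00227). Duox2, the oxidase that makes the hydrogen peroxide, had 2.91, 4.25 and 4.07 CPM with CKI and 0.159, 0.0814 and 0.243 CPM with vehicle (log2 fold change 4.47, SE 1.06, adjusted p = 0.0191), low levels in both groups but without overlap. The call was lost by Duox2 without vehicle library 1, 2 or 3 (adjusted p up to 0.07600).

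The transcription factors Pax8 and Foxe1 and the thyrotropin receptor rose as well. Pax8, a paired-box factor of the follicular lineage, had 700.3, 696 and 859 CPM with CKI and 109, 273 and 122 CPM with vehicle (log2 fold change 2.16, SE 0.37, adjusted p = 0.00209). Foxe1, a forkhead factor, had 7.34, 5.11 and 8.804 CPM with CKI and 1.65, 1.59 and 2.18 CPM with vehicle (log2 fold change 1.97, SE 0.53, adjusted p = 0.0371). Tshr, the thyrotropin receptor, had 832, 393 and 429 CPM with CKI and 148, 264 and 145 CPM with vehicle (log2 fold change 1.57, SE 0.41, adjusted p = 0.0314). In each of the 3 genes every CKI library lay above every vehicle library. Nkx2-1, the homeobox factor that also drives lung genes, had 29.1, 27.5 and 60.1 CPM with CKI and 15.1, 14.7 and 12.9 CPM with vehicle and did not pass the test (log2 fold change 1.45, SE 0.44, adjusted p = 0.0588), although its groups did not overlap either. Slc26a4, the anion exchanger pendrin, had 10.9, 5.08 and 6.09 CPM with CKI and 1.71, 0.977 and 1.15 CPM with vehicle (adjusted p = 0.131). Slc5a8, a monocarboxylate transporter, had 1.32, 3.54 and 6.09 CPM with CKI and 1.52, 5.46 and 0.546 CPM with vehicle (log2 fold change 0.55), with overlapping groups. The remaining members that did not pass were Duox1 (1.56), Glis3 (0.94), Thra (0.92), Thrb (0.40) and Dio2 (0.18), in log2 fold change. The threshold was missed by Foxe1 without CKI library 2 or 5 or vehicle library 1, 2 or 3 (adjusted p up to 0.117) and by Tshr without CKI library 2 or vehicle library 1 or 3 (adjusted p up to 0.149). Under the alternatives run, 5 to 11 members of the list rose and 0 fell.

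**Figure D2:**
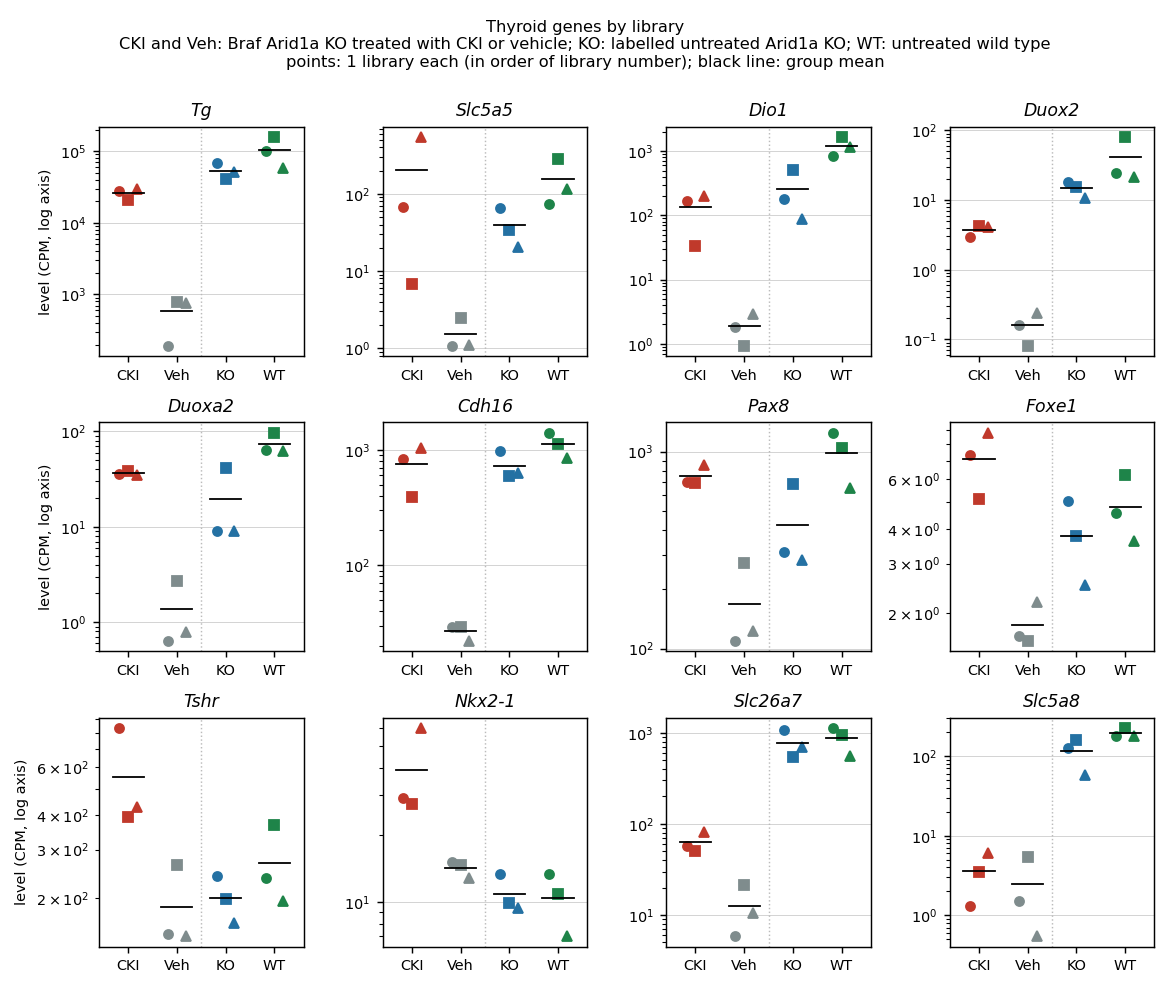
CPM on a log10 axis of thyroid genes in each library, CKI left of vehicle, in Braf(V600E) Arid1a KO thyroid cells, beside libraries labelled untreated Arid1a KO and untreated wild type; black lines are group means. Each point is 1 library; in Tg and Pax8 the 3 CKI libraries stand above the 3 vehicle libraries, and Slc5a5 spreads from 6.86 to 539 CPM within CKI.

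Genes that assist hormone synthesis moved the same way: 5 of 12 accessory genes rose, 0 fell, and the median log2 fold change was 1.77. Over all genes tested, 2.51% were called higher and 2.00% lower. Duoxa2, the maturation factor that brings Duox2 to the membrane and whose promoter is shown above, had 35.6, 38.5 and 34.98 CPM with CKI and 0.634, 2.73 and 0.788 CPM with vehicle (log2 fold change 4.73, SE 0.73, adjusted p = 0.00101). Cdh16, a kidney and thyroid cadherin, had 828, 387 and 1033 CPM with CKI and 29.3, 29.2 and 22.1 CPM with vehicle (log2 fold change 4.80, SE 0.61, adjusted p = 0.000245). In both genes the groups were well separated. Iyd, which recovers iodide from iodotyrosines, had 943, 843 and 869 CPM with CKI and 155, 250.1 and 134 CPM with vehicle (log2 fold change 2.30, SE 0.53, adjusted p = 0.01704). Slc26a7, an anion transporter of the follicular cell, had 57.9, 50.6 and 81.3 CPM with CKI and 5.84, 21.2 and 10.4 CPM with vehicle (adjusted p = 0.0318). Lrp2, the endocytic receptor megalin, had 114, 90.7 and 136 CPM with CKI and 31.9, 17.8 and 15.9 CPM with vehicle (adjusted p = 0.0118). Without vehicle library 1, 3 of the accessory genes rose, and without vehicle library 3, 2 did. The members that did not pass included Duoxa1 (log2 fold change 2.15, adjusted p = 0.0734), Ano1, Kcnq1, Hhex, Kcne2 and Pde8b. The test was no longer passed by Iyd without vehicle library 1 or 3 (adjusted p up to 0.0941), Slc26a7 without CKI library 2 or 5 or vehicle library 1 or 3 (adjusted p up to 0.1299) and Lrp2 without vehicle library 2 or 3 (adjusted p up to 0.0739).

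Several of the 12 largest rises lay outside these lists. Slc26a10, an SLC26 family member, had 188, 66.8 and 153 CPM with CKI and 2.82, 3.83 and 2.304 CPM with vehicle (log2 fold change 5.51, SE 0.55, adjusted p = 1.55e-05). Adm2, the peptide hormone intermedin, had 11.4, 2.79 and 9.04 CPM with CKI and 0.127, 0 and 0.243 CPM with vehicle (log2 fold change 5.85, SE 0.94, adjusted p = 0.00134). The rule for the 12 largest rises takes only genes whose CKI and vehicle libraries do not overlap, so their separation is no added result. Pdzrn3, a ubiquitin ligase, had 27.6, 4.65 and 15.6 CPM with CKI and 0.698, 0 and 0.485 CPM with vehicle (log2 fold change 5.29, SE 0.89, adjusted p = 0.00196). Smtnl2, a smoothelin-like protein gene, had 18.8, 9.04 and 52.8 CPM with CKI and 0.9199, 1.22 and 1.61 CPM with vehicle (log2 fold change 4.42, SE 0.79, adjusted p = 0.00323). Myh11, smooth muscle myosin, had 21.1, 2.47 and 0.853 CPM with CKI and 0.349, 0.204 and 0.0303 CPM with vehicle, highest in CKI library 2. Hpse, heparanase, had 2.300, 2.47 and 55.1 CPM with CKI and 0.0317, 0.937 and 1.49 CPM with vehicle. Trim36 had 3.08, 3.11 and 42.2 CPM with CKI and 0.603, 0.407 and 0.9399 CPM with vehicle. Hpse and Trim36 were highest in CKI library 5. Calls did not hold for Myh11 without CKI library 2 or vehicle library 1, 2 or 3 (adjusted p up to 0.2295), Hpse without CKI library 5 or vehicle library 1, 2 or 3 (adjusted p up to 0.361) and Trim36 without CKI library 5 (adjusted p up to 0.08198).

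The ERK-pathway output list moved the other way, but in few members: 0 of 20 rose, 5 fell, and the median log2 fold change was -0.74. Beside these counts, 2.51% of all genes were called higher and 2.00% lower. The 3 CKI libraries stood below the 3 vehicle libraries with no overlap in 8 of the 20, against 14.2% of all genes. With 1 library left out, whichever it was, 1 to 3 members fell. Among the ETS factors that ERK signalling induces, Etv5 had 4.33, 6.65 and 14.4 CPM with CKI and 53.8, 101 and 71.8 CPM with vehicle (log2 fold change -3.16, SE 0.49, adjusted p = 0.00101). Etv4 had 5.58, 9.97 and 3.96 CPM with CKI and 19.8, 23.8 and 42.1 CPM with vehicle (log2 fold change -2.13, SE 0.60, adjusted p = 0.0421). Etv1 had 28.3, 25.1 and 37.04 CPM with CKI and 63.5, 70.3 and 72.6 CPM with vehicle (log2 fold change -1.19, SE 0.31, adjusted p = 0.0315). The 3 factors thus lay lower in every CKI library. Spred1, a feedback inhibitor of Ras signalling, had 46.6, 45.9 and 32.6 CPM with CKI and 96.3, 67.6 and 79.4 CPM with vehicle (log2 fold change -0.96, SE 0.24, adjusted p = 0.0254). Ccnd1, cyclin D1, which drives entry into the cell cycle, had 138, 152 and 180.1 CPM with CKI and 647, 782 and 448 CPM with vehicle (log2 fold change -2.00, SE 0.49, adjusted p = 0.0225). Etv5 kept its call without any 1 library, which was not so for Etv4 without CKI library 2 or 5 or vehicle library 1, 2 or 3 (adjusted p up to 0.171) and Etv1 without CKI library 2 or 4 or vehicle library 1, 2 or 3 (adjusted p up to 0.101). The same held for Spred1 without CKI library 5 or vehicle library 1 or 3 (adjusted p up to 0.109) and Ccnd1 without CKI library 2, 4 or 5 or vehicle library 1 or 2 (adjusted p up to 0.0776).

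The members that did not pass include the ERK phosphatases and several early response genes. Dusp6, the ERK phosphatase, had 228, 526 and 701 CPM with CKI and 1179, 986 and 667 CPM with vehicle (log2 fold change -0.96, adjusted p = 0.222). Dusp4 had 2.98, 3.22 and 22.3 CPM with CKI and 19.95, 17.6 and 16.5 CPM with vehicle, so libraries 2 and 4 lay below and library 5 above the vehicle libraries. Spry4, a feedback inhibitor, had 10.6, 12.5 and 20.4 CPM with CKI and 47.6, 39.2 and 28.95 CPM with vehicle (adjusted p = 0.0686). Egr1, an early growth response factor, had 428, 893 and 3772 CPM with CKI and 671, 681 and 428 CPM with vehicle (adjusted p = 0.174). Phlda1 had 49.4, 70.4 and 341 CPM with CKI and 77.7, 55.2 and 53.3 CPM with vehicle, and Myc 73.7, 224 and 374 CPM with CKI and 369, 417 and 319 CPM with vehicle; in both, library 5 was the highest CKI library. Without CKI library 5, 2 of the 20 members fell and 0 rose, and the list's median was -1.32. Without CKI library 2, 2 fell and 1 rose, and the median was -0.40. In the immediate early gene list, whose members also respond to tissue dissociation, 0 of 16 were called by edgeR or by DESeq2, and 3 had an unadjusted p under 0.05.

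**Figure D3:**
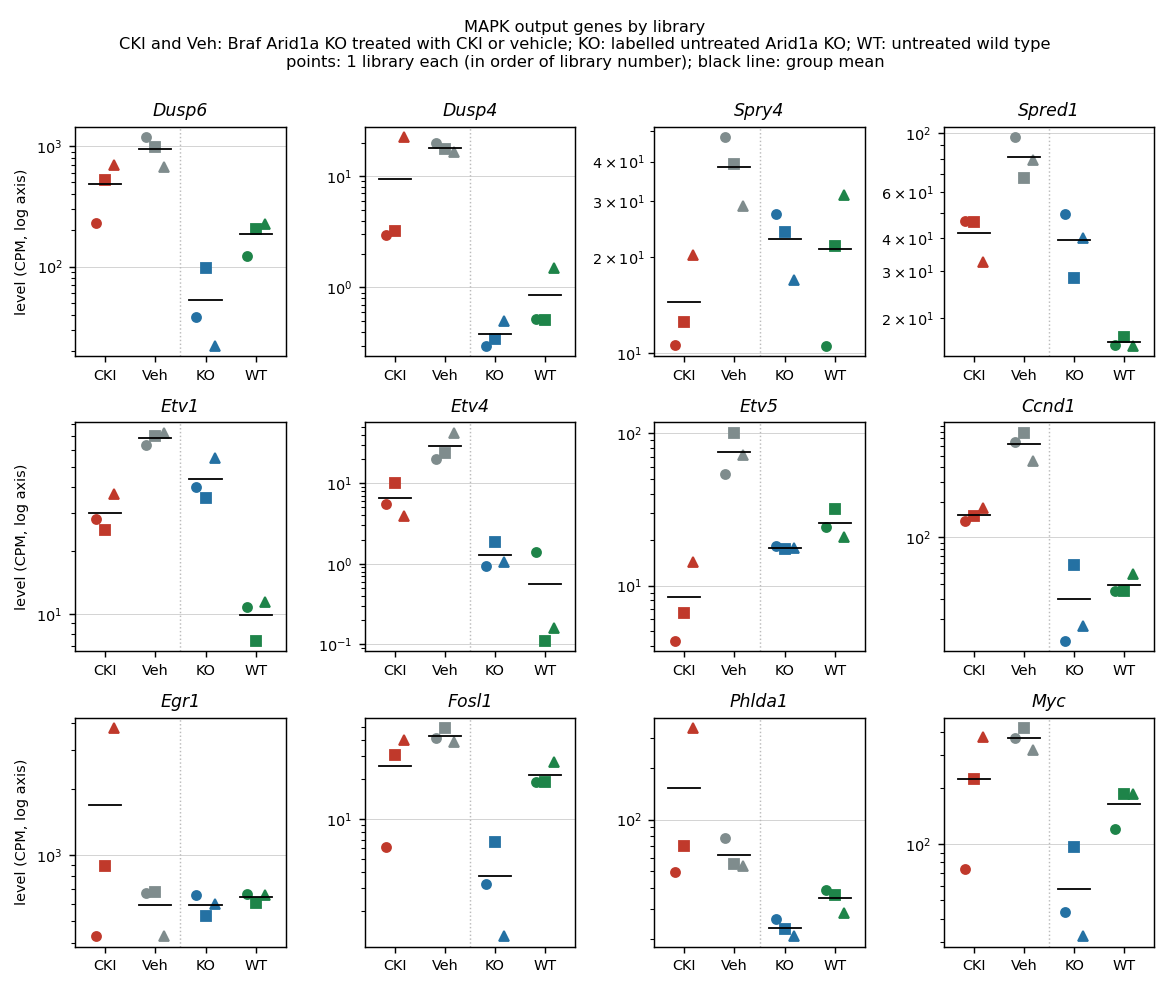
CPM on a log10 axis of ERK-pathway output genes per library in Braf(V600E) Arid1a KO thyroid cells, CKI left of vehicle, beside libraries labelled untreated Arid1a KO and untreated wild type; each point is 1 library and black lines are group means. Etv5, Etv4 and Ccnd1 are lower in all 3 CKI libraries, whereas Dusp4 and Phlda1 are high in CKI library 5.

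Of 23 receptor tyrosine kinase and ligand genes 4 were higher with CKI and 1 was lower, with a list median of 0.65. Over all genes 2.51% were higher and 2.00% lower. With 1 library left out, 1 to 4 members of the list were higher and 0 lower. Kit, the stem cell factor receptor, had 7.81, 11.5 and 15.9 CPM with CKI and 0.856, 1.099 and 1.21 CPM with vehicle (log2 fold change 3.47, SE 0.66, adjusted p = 0.00502). Egfr had 46.7, 17.8 and 18.4 CPM with CKI and 6.25, 5.21 and 6.28 CPM with vehicle (log2 fold change 2.22, SE 0.57, adjusted p = 0.0291), Fgfr2 had a log2 fold change of 1.72 and the Egfr ligand Tgfa one of 1.44. Ereg, another Egfr ligand, fell, with 141, 539 and 485 CPM in CKI against 1139, 1242 and 1795 CPM in vehicle (log2 fold change -1.84, SE 0.53, adjusted p = 0.0462). The list's median was -0.05 without CKI library 5. No longer called were Egfr without CKI library 2 or vehicle library 1, 2 or 3 (adjusted p up to 0.138), Fgfr2 without CKI library 4 or 5 or vehicle library 1, 2 or 3 (adjusted p up to 0.159) and Tgfa without CKI library 2 or 5 or vehicle library 1, 2 or 3 (adjusted p up to 0.138). The call of Ereg was lost without any 1 of the 6 libraries and with RLE factors in place of TMM.

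D-type cyclins moved in opposite directions. Ccnd2, cyclin D2, had 503, 605 and 562 CPM with CKI and 149, 200.3 and 120.2 CPM with vehicle (log2 fold change 1.83, SE 0.29, adjusted p = 0.00103), opposite in direction to cyclin D1. Cdkn1c, which inhibits cyclin-dependent kinases, had 20.3, 11.7 and 41.4 CPM with CKI and 2.66, 2.77 and 4.31 CPM with vehicle (log2 fold change 2.91, SE 0.71, adjusted p = 0.0234). Cdk6, the partner of D cyclins, had 8.93, 12.4 and 20.8 CPM with CKI and 4.92, 3.42 and 3.18 CPM with vehicle (log2 fold change 1.87, SE 0.49, adjusted p = 0.0322). Of 18 G1 control genes 3 rose and 1 fell, beside 2.51% of all genes higher and 2.00% lower. Only 1 of them rose without CKI library 5 or vehicle library 1, 2 or 3, and 0 fell without CKI library 2, 4 or 5 or vehicle library 1 or 2. Of 20 mitosis genes 0 rose and 1 fell, Kif23, a kinesin of cytokinesis, with 5.24, 3.15 and 0.776 CPM in CKI against 13.9, 13.8 and 24.4 CPM in vehicle (log2 fold change -2.50, SE 0.63, adjusted p = 0.0262). That is 1 gene in a list of 20, where 2.00% of all genes were lower, and 0 were called without CKI library 4 or 5 or vehicle library 3. The mitosis list's median was -1.04. Of 20 DNA replication genes 0 passed the test with edgeR or DESeq2 and 2 had an unadjusted p under 0.05. Their median was -0.16, but -0.51 without CKI library 2, 0.11 without CKI library 5 and 0.06 without vehicle library 3. Bcl2, which blocks apoptosis, had 48.5, 43.2 and 54.9 CPM with CKI and 11.9, 11.4 and 4.37 CPM with vehicle (log2 fold change 2.41, SE 0.39, adjusted p = 0.00161). The call was lost by Cdkn1c without CKI library 5 or vehicle library 1, 2 or 3 (adjusted p up to 0.0986), Cdk6 without CKI library 5 or vehicle library 1, 2 or 3 (adjusted p up to 0.136) and Kif23 without CKI library 4 or 5 or vehicle library 3 (adjusted p up to 0.106).

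The 12 largest named falls included Spp1, Mcpt8, Il18rap, Chi3l3, Gad2 and Nipal1. Spp1, osteopontin, a matrix protein made by tumour cells and macrophages, had 331, 269 and 34.8 CPM with CKI and 5791, 3263 and 5580.2 CPM with vehicle (log2 fold change -4.53, SE 0.89, adjusted p = 0.00642). Mcpt8, the basophil protease, had 5.31, 6.58 and 1.44 CPM with CKI and 331, 162 and 252 CPM with vehicle (log2 fold change -5.80, SE 1.0, adjusted p = 0.00242). The rule for the 12 largest falls likewise takes only genes without overlap between CKI and vehicle libraries. Il18rap, a subunit of the interleukin-18 receptor, had 0.237, 0.715 and 1.12 CPM with CKI and 20.4, 13.4 and 33.7 CPM with vehicle (log2 fold change -5.02, SE 0.94, adjusted p = 0.00441). Chi3l3, a chitinase-like protein of alternatively activated macrophages, had 18.9, 1.75 and 1.36 CPM with CKI and 995, 435 and 412 CPM with vehicle (adjusted p = 0.0113), and its count is uncertain because near-identical family members can share its reads. Gad2, a glutamate decarboxylase, had 0, 0 and 0.3103 CPM with CKI and 8.37, 15.1 and 10.1 CPM with vehicle (log2 fold change -6.76, SE 1.39, adjusted p = 0.0118). Nipal1, a magnesium transporter-like gene, had 0.0338, 0.357 and 0 CPM with CKI and 8.56, 5.01 and 8.31 CPM with vehicle (log2 fold change -5.75, SE 1.08, adjusted p = 0.00458). Cyp24a1, the vitamin D 24-hydroxylase, had 0.0338, 0.286 and 0.155 CPM with CKI and 4.41, 22.1 and 6.43 CPM with vehicle (adjusted p = 0.0314). The call was lost by Chi3l3 without CKI library 5 (adjusted p up to 0.05200) and Cyp24a1 without CKI library 2, 4 or 5 or vehicle library 2 or 3 (adjusted p up to 0.111).

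Other named falls differed widely among the vehicle libraries. Bpifb9a had 0 counts in all 3 CKI libraries and 0.444, 0.0814 and 38.02 CPM in vehicle, so that its level was at least 396-fold lower with CKI against a floor of 3 counts over the group, carried by vehicle library 3. Cst11 and Spink8, with log2 fold changes of -4.99 and -4.84, were highest in vehicle library 1. Calcb, a calcitonin gene-related peptide, had 0.271, 0.143 and 0.0776 CPM with CKI and 8.596, 0.366 and 21.5 CPM with vehicle. Sult1e1, an estrogen sulfotransferase, had 1.49, 0.393 and 0 CPM with CKI and 8.18, 50.04 and 17.5 CPM with vehicle, with 0 in CKI library 5. The call was lost by Bpifb9a without CKI library 2, 4 or 5 or vehicle library 3 (adjusted p up to 0.257) and Sult1e1 without CKI library 4 or 5 or vehicle library 2 or 3 (adjusted p up to 0.0813), and likewise by Cst11 without CKI library 2, 4 or 5 or vehicle library 1 or 3 (adjusted p up to 0.245) and Spink8 without CKI library 4 or 5 or vehicle library 1 (adjusted p up to 0.2296).

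Matrix proteases, keratinization genes, lung secretory genes and NRF2 targets had members that fell, beside 2.00% of all genes lower and 2.51% higher. Of 13 matrix protease genes 3 fell and 0 rose, or 1 rose with RLE factors. Plaur, the urokinase receptor, had 19.9, 66.3 and 39.1 CPM with CKI and 171, 238 and 202 CPM with vehicle (log2 fold change -2.29, SE 0.50, adjusted p = 0.0119). Plau, urokinase, had 1.39, 2.502 and 2.56 CPM with CKI and 3.81, 7.13 and 7.49 CPM with vehicle (log2 fold change -1.51, SE 0.43, adjusted p = 0.04301). Mmp13, a collagenase, fell too, with 0.203, 0 and 0.0776 CPM in CKI and 2.73, 4.72 and 4.18 CPM in vehicle. Krt20, a gut-type keratin, had 8.93, 33.8 and 12.6 CPM with CKI and 436, 334 and 321 CPM with vehicle (log2 fold change -4.30, SE 0.88, adjusted p = 0.00803); of 14 keratinization genes 2 fell and 0 rose. The other, Ivl (involucrin, a cornified envelope protein), lost its call without any 1 of the 6 libraries (adjusted p up to 0.132). Sftpa1, a surfactant protein, had 833, 1462 and 122 CPM with CKI and 11464, 9716 and 5175 CPM with vehicle (log2 fold change -3.45, SE 0.97, adjusted p = 0.0432), 1 of 11 surfactant and lung secretory genes called. Nqo1, the quinone reductase that NRF2 induces, had 6.83, 4.15 and 5.55 CPM with CKI and 30.4, 29.97 and 33.02 CPM with vehicle (log2 fold change -2.50, SE 0.44, adjusted p = 0.00302), and 3 of 13 NRF2 targets fell with 0 rising. The other 2, Hmox1 and Gstm1, did not keep their calls: Hmox1 lost it without CKI library 2 or 5 or vehicle library 2 or 3 (adjusted p up to 0.0997), and Gstm1 without CKI library 2 or 4 or vehicle library 1, 2 or 3 (adjusted p up to 0.103). In contrast, Tnc, tenascin C, rose, with 144, 121 and 59.03 CPM in CKI against 3.299, 16.5 and 14.7 CPM in vehicle (log2 fold change 3.23, SE 0.83, adjusted p = 0.0295). The threshold was missed by Plaur without CKI library 2 or 5 (adjusted p up to 0.0595), Plau without CKI library 2, 4 or 5 or vehicle library 2 or 3 (adjusted p up to 0.156) and Mmp13 without any 1 of the 6 libraries (adjusted p up to 0.132). The same held for Sftpa1 without CKI library 2 or 5 or vehicle library 1, 2 or 3 (adjusted p up to 0.1401) and Tnc without CKI library 2 or vehicle library 1, 2 or 3 (adjusted p up to 0.104), whereas Krt20 and Nqo1 kept theirs without any 1 library. Without CKI library 5, 0 of 13 matrix protease genes fell.

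Of 7 class II antigen presentation genes 4 fell and 0 rose, with a median of -1.53, beside 2.00% of all genes lower. H2-Ab1 had 334, 262 and 197 CPM with CKI and 604, 1600.5 and 2029 CPM with vehicle (log2 fold change -2.42, SE 0.62, adjusted p = 0.0291). Cd74, the invariant chain, had 1025, 818 and 681 CPM with CKI and 1049, 3069 and 4186 CPM with vehicle (log2 fold change -1.72, SE 0.45, adjusted p = 0.0325). In both genes vehicle library 1 was the lowest of its group. Of 8 general leukocyte markers 1 fell, Cd53, and of 10 macrophage markers 2 fell, Cd14 (log2 fold change -3.11) and Cd68 (-1.65). The 10 macrophage markers summed to 302, 546 and 81.8 CPM with CKI and 391, 1543 and 895 CPM with vehicle, overlapping between groups. The 9 mast cell and basophil markers summed to 6.05, 7.68 and 1.71 CPM with CKI and 335, 168 and 257 CPM with vehicle, most of it Mcpt8. Fewer cells of a type and less RNA per cell cannot be told apart in these libraries. With the leukocyte level as a covariate, 313 genes were called in place of 858, 5 thyroid genes rose, and 0 class II genes fell. The leukocyte level did not overlap between CKI and vehicle libraries, so this fit cannot separate it from the drug. Leaving out either CKI library 5 or vehicle library 3 left 0 class II genes called. The test was no longer passed by H2-Ab1 without CKI library 2, 4 or 5 or vehicle library 2 or 3 (adjusted p up to 0.119), Cd74 without CKI library 2, 4 or 5 or vehicle library 2 or 3 (adjusted p up to 0.171) and Cd53 without CKI library 2 or 5 or vehicle library 2 or 3 (adjusted p up to 0.1297), and by Cd68 without CKI library 2 or 5 or vehicle library 1, 2 or 3 (adjusted p up to 0.205); Cd68 also lost its call with RLE factors.

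**Figure D4:**
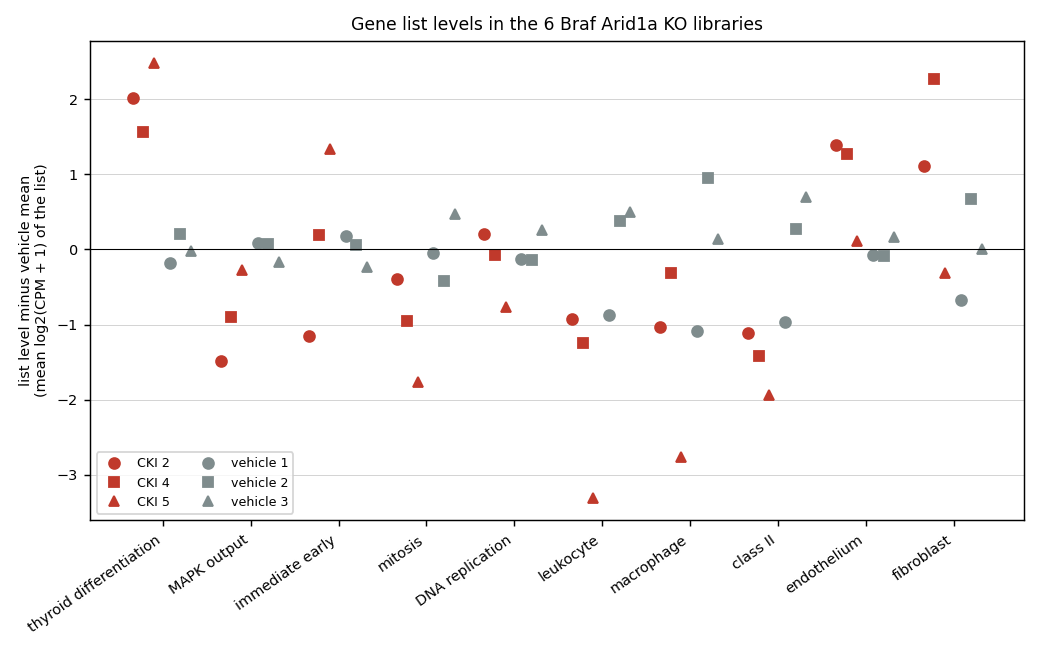
Level of each gene list in each of the 6 Braf(V600E) Arid1a KO libraries, CKI left of vehicle, as mean log2(CPM + 1) minus the mean of the 3 vehicle libraries. The thyroid list is higher in all 3 CKI libraries (mean log2(CPM + 1) of 4.83 to 5.75 against 3.07 to 3.46 in vehicle), and the leukocyte list is lowest in CKI library 5.

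Markers of other cells of the gland were measured as well. The 10 endothelial markers summed to 140.1, 126 and 55.6 CPM with CKI and 65.7, 52.1 and 65.7 CPM with vehicle, against 2229 to 2988 CPM in the libraries labelled untreated Arid1a KO and 2109.6 to 3188 CPM in wild type. Flt1, a VEGF receptor and 1 of the 10, rose, with 8.86, 8.29 and 9.08 CPM with CKI and 2.13, 1.63 and 2.06 CPM with vehicle (log2 fold change 2.17, SE 0.44, adjusted p = 0.00768). The 10 fibroblast markers summed to 1728, 3581 and 548 CPM with CKI and 377, 946 and 589 CPM with vehicle, against 10271 to 14281 CPM in the libraries labelled untreated Arid1a KO and 814 to 1528 CPM in wild type. Of these 10 markers 0 passed edgeR's test between CKI and vehicle, 3 had an unadjusted p under 0.05, and DESeq2 called 2, both higher. The 4 parathyroid markers summed to 135, 12.3 and 36.8 CPM with CKI and 17.8, 8.18 and 3.34 CPM with vehicle, and Casr, the calcium-sensing receptor, rose (log2 fold change 5.52, SE 1.09, adjusted p = 0.00649).

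Other groups of genes had a few members that passed, beside 2.51% of all genes higher and 2.00% lower. Of 11 Notch pathway genes 3 rose and 0 fell, with a median of 0.71. Heyl, a Notch target, had 14.9, 14.2 and 6.17 CPM with CKI and 0.7296, 1.67 and 0.697 CPM with vehicle (log2 fold change 3.52, SE 0.66, adjusted p = 0.00433), and Notch1 (3.06) and Notch3 (2.77) rose with it, Notch3 being also a pericyte marker. Pdia4, a disulfide isomerase of the endoplasmic reticulum, had 1557, 998 and 1089.6 CPM with CKI and 453, 403 and 493 CPM with vehicle (log2 fold change 1.43, SE 0.27, adjusted p = 0.00418), and of 15 folding genes it and Calr rose. Elovl6, a fatty acid elongase, had 264, 126 and 175 CPM with CKI and 73.5, 40.2 and 56.6 CPM with vehicle (log2 fold change 1.73, SE 0.30, adjusted p = 0.00266). In its fatty acid synthesis list 1 member was higher and 0 lower, with a median of 0.25. Vegfa, the angiogenic factor, had 62.9, 102 and 239 CPM with CKI and 42.5, 52.2 and 31.7 CPM with vehicle (log2 fold change 1.67, SE 0.47, adjusted p = 0.04301). Its list, glycolysis and hypoxia, did not move as a whole: 1 member was higher and 1 lower, with a median of -0.22. Of 25 SWI/SNF genes 1 rose and 0 fell: Arid1b, the paralog that can take the place of Arid1a in BAF, had 43.9, 32.7 and 41.7 CPM with CKI and 9.99, 14.1 and 10.2 CPM with vehicle (log2 fold change 1.79, SE 0.42, adjusted p = 0.01803). Eed, a core subunit of Polycomb repressive complex 2, had 20.5, 25.6 and 17.1 CPM with CKI and 41.4, 37.9 and 46.1 CPM with vehicle (log2 fold change -0.99, SE 0.26, adjusted p = 0.0313), 1 of 13 Polycomb genes called. Of 21 interferon-stimulated genes 1 rose, Oasl2. A single gene called in the SWI/SNF, Polycomb or interferon list is near the share over all genes. Calls did not hold for Notch3 without CKI library 2 or vehicle library 1 or 3 (adjusted p up to 0.118), Calr without CKI library 2 or vehicle library 1, 2 or 3 (adjusted p up to 0.0742) and Vegfa without CKI library 5 or vehicle library 1, 2 or 3 (adjusted p up to 0.281). The same held for Arid1b without CKI library 2 or vehicle library 1 or 3 (adjusted p up to 0.0879), Eed without CKI library 2 or 5 or vehicle library 1, 2 or 3 (adjusted p up to 0.124) and Oasl2 without any 1 of the 6 libraries (adjusted p up to 0.1604). Lists for heat shock, class I antigen presentation, the respiratory chain, lysosome and autophagy, TGF-beta, epithelial junctions and Hippo had 0 members called by edgeR at an adjusted p under 0.05. Each of these 7 lists had 0 to 7 members with an unadjusted p under 0.05, the most in the lysosome list (7 of 16), and 0 to 2 members called by DESeq2.

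Whether the response depends on Arid1a was tested as the difference between the CKI effect in Braf(V600E) Arid1a KO and the CKI effect in Braf(V600E), whose libraries are separate. Of 19016 genes, 0 passed the test of this difference with edgeR, 2018 had an unadjusted p under 0.05, and DESeq2 called 168. Without CKI library 5 of the KO, edgeR called 275. Between CKI and vehicle in Braf(V600E) alone 2466 genes differed (13.0%), 1513 higher (7.96%) and 953 lower (5.01%). Genes higher in both numbered 210, 44.0% of the rises in Arid1a KO and 13.9% of those in Braf. Genes lower in both numbered 206, 54.1% and 21.6%, and 2 went opposite ways. Across the 19016 genes the log2 fold changes had Pearson r = 0.40 and Spearman rho = 0.43, a description over genes that are not independent.

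**Figure D5:**
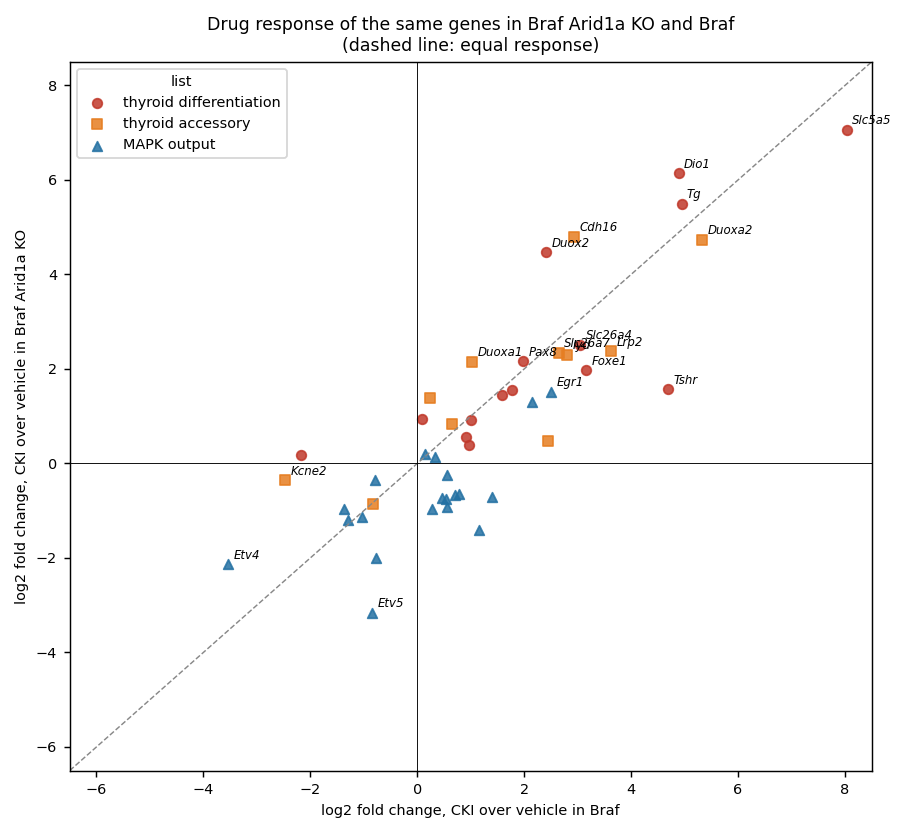
Log2 fold change with CKI in Braf(V600E) Arid1a KO (y axis) against that in Braf(V600E) (x axis), 1 point per reported gene of the thyroid differentiation, thyroid accessory and ERK output lists, 3 libraries per group. Slc5a5, Dio1 and Tg lie high on both axes, and Tshr lies off the diagonal with 1.57 in the KO and 4.69 in Braf.

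The 10 genes with the smallest p for the difference had adjusted p-values of 0.092 to 0.144, and all 10 passed with DESeq2 and without CKI library 5. Tshr had 832, 393 and 429 CPM with CKI and 148, 264 and 145 CPM with vehicle in the KO, against 635, 248 and 353 CPM and 14.5, 17.4 and 15.9 CPM in Braf, a difference of -3.12, SE 0.58, adjusted p = 0.106. The CKI levels overlapped between genotypes, and the vehicle levels of the KO lay above those of Braf. Ppara, a fatty acid oxidation regulator, had 6.56, 4.79 and 8.11 CPM with CKI and 12.1, 17.2 and 14.9 CPM with vehicle in the KO, against 3.89, 4.003 and 2.996 CPM and 0.866, 0.723 and 0.983 CPM in Braf (difference -3.26, SE 0.61, adjusted p = 0.106). Dhrs3, a retinal reductase, had 302, 270.2 and 299.7 CPM with CKI and 178, 274 and 210.4 CPM with vehicle in the KO, against 322, 259 and 298 CPM and 55.4, 84.3 and 70.5 CPM in Braf (difference -1.67, SE 0.32, adjusted p = 0.106). Tnc had 42.1, 19.4 and 81.5 CPM with CKI and 45.8, 423 and 212 CPM with vehicle in Braf, beside the values given above (difference 5.49, SE 1.15, adjusted p = 0.144). Insc, a spindle orientation gene, had 0 counts in the CKI libraries of the KO and 4.89, 1.63 and 6.49 CPM in vehicle, at least 127-fold lower with CKI, against 0.941, 0.421 and 0.826 CPM and 0.5603, 1.302 and 1.22 CPM in Braf. The others were Fbp2, Phf7, Cep63, Nefl and Fam114a1. The thyroid list had a median of 2.19 and 10 rises in Braf, the accessory list 2.25 and 7 rises, and the ERK output list 0.40 with 3 rises and 3 falls; the median difference over the lists was -0.18, -0.17 and -1.09. The first of these was 0.03 without CKI library 2 and 0.05 without Braf vehicle library 2, and the second 0.28 without vehicle library 2. Under the stress covariate (the level of the immediate early list without Egr1) the 3 medians were 0.43, 0.22 and -0.37. That covariate is made of early response genes, a kind the ERK output list also holds. It can therefore take out part of the drug effect. In Braf the level of the whole immediate early list was 9.07 to 9.94 with CKI and 7.77 to 8.47 with vehicle, without overlap. Of the ERK output genes, 4 passed the test of the difference without CKI library 5 and 2 with DESeq2, all lower.

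Against the libraries labelled untreated Arid1a KO, 7384 genes differed (38.8%), 4117 higher (21.7%) and 3267 lower (17.2%) in CKI-treated Braf(V600E) Arid1a KO. Marker levels of other cells differed as well and cannot be told apart from the genotype and the drug: C cell markers summed to 117, 33.1 and 34.3 CPM in CKI libraries and 4640.2 to 12907 CPM in the libraries labelled KO, and the leukocyte markers to 423, 365 and 151 CPM and 2383 to 4216 CPM. Tg did not pass, with 27539, 20959 and 30118 CPM in CKI libraries and 68839, 41442 and 50686 CPM in the libraries labelled KO (log2 fold change -1.03, adjusted p = 0.217). Tshr was higher (log2 fold change 1.46, adjusted p = 0.00738), as was Nkx2-1 (log2 fold change 1.84, adjusted p = 0.00256), and Slc5a8 was lower, with 1.32, 3.54 and 6.09 CPM against 127, 159.9 and 57.9 CPM (log2 fold change -4.98, adjusted p = 0.000886). Of 16 thyroid genes 5 were higher and 2 lower, with a median of 0.87. The median was 0.31 without CKI library 5, 3 were higher without CKI library 2, and 4 were lower with RLE factors and 5 with DESeq2 or with only the 2 groups fitted. Of 20 ERK output genes 10 were higher and 0 lower, with a median of 1.24, Dusp6 among them (log2 fold change 3.20, adjusted p = 5.32e-05). That median was 0.46 without CKI library 5. Under the leukocyte covariate 0 thyroid genes and 0 ERK output genes were called, with medians of 0.33 and 0.28. The leukocyte level (mean log2(CPM + 1)) was 2.94 to 5.33 in CKI libraries and 7.75 to 8.49 in the libraries labelled KO. That fit thus cannot separate it from the groups compared. Under the stress covariate, with the limit given above, 2 thyroid and 5 ERK output genes were higher, with medians of 0.43 and 0.19. Smarcb1, another SWI/SNF subunit, had 148, 150.4 and 179 CPM in CKI libraries and 22.3, 62.5 and 15.1 CPM in the libraries labelled KO (log2 fold change 2.25, adjusted p = 0.00458), beside 74.8, 152 and 111 CPM in wild type. Smarcb1 was thus lower in these libraries than in every wild-type library. Arid1a was lower too, but narrowly, with 27.3 CPM in the highest beside 27.9 CPM in the lowest wild-type library. The CKI libraries kept similar Arid1a levels, so Arid1a RNA does not decide the label. The Smarcb1 levels put the label of the group in doubt, and every comparison with it is one with libraries of uncertain genotype. Gzme, a granzyme, had 438, 1349.9 and 94.9 CPM in CKI libraries and 0.2996, 0.137 and 0.586 CPM in the libraries labelled KO (log2 fold change 10.86, adjusted p = 1.03e-05). The call of Tshr was lost without CKI library 2 (adjusted p = 0.0595).

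Against untreated wild-type thyroid, 3253 genes differed (17.1%), 1614 higher (8.49%) and 1639 lower (8.62%). The parathyroid markers summed to 135, 12.3 and 36.8 CPM in CKI libraries and 4214 to 14843 CPM in wild type, for which the labels describe frozen thyroids. Tg reached 27539, 20959 and 30118 CPM in CKI libraries against 99412, 155494 and 58871 CPM in untreated wild type (log2 fold change -2.00, adjusted p = 0.0427). Dio1 (log2 fold change -3.18, adjusted p = 0.0185), Duox2 (log2 fold change -3.48, adjusted p = 0.0132), Slc5a8 (log2 fold change -5.73, adjusted p = 0.00105) and Duox1 were also lower, so that 5 of 16 thyroid genes were lower and 2 higher, with a median of 0.27. The sign of that median was not stable: it was -0.17 without CKI library 5, 0.05 without wild-type library 1, 0.46 without CKI library 4, 0.53 without wild-type library 2, and -0.18 and -0.24 with the leukocyte and stress covariates. Only 3 were lower without CKI library 4 or 5 or wild-type library 1, and 2 without wild-type library 2. Nkx2-1 was higher (log2 fold change 1.90, adjusted p = 0.00551). Slc26a4 had 0 counts in wild type and 10.9, 5.08 and 6.09 CPM in CKI libraries, at least 216-fold higher against a floor of 3 counts over the group. Of 20 ERK output genes 8 were higher and 1 lower, Etv5, with a median of 1.07; Dusp6 was among the higher ones (log2 fold change 1.39, adjusted p = 0.0369). Without CKI library 5 the median was 0.30 and 5 were higher. Under the stress covariate, with the limit given above, the median was 0.28, and with only the 2 groups fitted 4 were higher. Genes with 0 counts in wild type included Gpr128 and Rorb, which were at least 821-fold and 738-fold higher in CKI libraries. The call was lost by Tg without CKI library 2, 4 or 5 or wild-type library 1 or 2 (adjusted p up to 0.146), Dio1 without CKI library 4 or wild-type library 2 (adjusted p up to 0.0665) and Duox2 without wild-type library 2 (adjusted p up to 0.0778). The same held for Duox1 without CKI library 5 or wild-type library 1 (adjusted p up to 0.0589), Etv5 without CKI library 2 or 4 or wild-type library 2 (adjusted p up to 0.0864) and Dusp6 without CKI library 4 or 5 or wild-type library 1, 2 or 3 (adjusted p up to 0.192). Npas4, a neuronal activity factor, had 0 counts in CKI libraries and was at least 596-fold lower.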

How the data were processed

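RNA of thyroid cells was sequenced with a TruSeq kit whose strand is not stated. Per the submitters' processing notes, reads were handled with STAR 2.4, HTSeq 0.6.1 and DESeq2 on mm9. The deposited table holds raw counts of reads per gene, made by the authors; no other file was used, and 0 columns were left without a sample. Of 30 labelled samples, 2 had no column.

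Genes with low counts were removed by filterByExpr, leaving 19016 of 33924. edgeR 4.0.16 in R 4.3.3 fitted 28 libraries with 1 term for each of 10 groups, TMM factors (0.961 to 1.06 in the 6 libraries) and the quasi-likelihood test, and p-values were adjusted over all genes by Benjamini-Hochberg at 0.05. The SE is the log2 fold change divided by the square root of F. A fold against a group at 0 uses a floor of 3 counts over that group. Levels are CPM on effective sizes, with a pseudocount of 1 on the log2 scale in list levels. Libraries were not paired by replicate number, since nothing in the labels links equal numbers. Same-numbered libraries deviated with r of -0.38 to 0.14, and differently numbered ones with r of -0.30 to 0.35. With so few libraries per group these values cannot show whether a number marks a shared mouse or batch. Scripts were tested on simulated data. Alternatives were DESeq2 1.42.0, RLE factors, no filter, fits of the compared groups alone, covariates, a replicate block and leaving out each library.

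Members and lists were chosen with earlier results of these data known. Named genes were the 12 rises and 12 falls of largest fold among called, non-overlapping genes with at least 5 CPM, the 3 lists of thyroid and ERK output genes, up to 6 members of other lists, and the 10 smallest p for the difference; some genes this takes are not reported here.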

Additional observations from a re-analysis of the deposited data

How the results depend on the processing

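In the main fit 83 named genes were called between CKI and vehicle. Of these, 21 kept the call in every alternative, 32 kept it when any 1 library was left out, and all 83 kept their sign. For CKI against vehicle, 858 genes became 1843 with DESeq2, 527 with only the groups of the comparison fitted, 313 with the leukocyte level as a covariate, and 256 to 756 with 1 library left out. They became 864 with RLE factors and 756 with no filter. The dissociation stress level as a covariate gave 1007 and the Y-linked level 1216. For the difference between genotypes, 0 became 168 with DESeq2, 1 with no filter, 3 with the leukocyte level and 1 with the dissociation stress level as a covariate, and 0 to 275 with 1 library left out, 275 being without CKI library 5. Against the libraries labelled untreated Arid1a KO, 7384 became 363 under the leukocyte covariate, 4429 under the stress covariate, and 5556 to 7685 with 1 library left out. They became 8094 with DESeq2 and 4995 with only the groups of the comparison fitted. In both of these comparisons with CKI, the leukocyte level did not overlap between the groups, so its covariate cannot be separated from them. Against wild type, 3253 became 1893 to 2888 with 1 library left out, 4159 with DESeq2 and 2416 with only the groups of the comparison fitted. Covariates gave 2425 (leukocyte level), 2604 (stress level) and 2598 (Y-linked level). Epha2 against the libraries labelled untreated Arid1a KO reversed with the leukocyte level as a covariate (log2 fold change -1.14, adjusted p = 0.578). The causes were not tested.

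With a replicate block the calls were 177 for CKI against vehicle, 0 for the difference, 4902 against the libraries labelled untreated Arid1a KO and 1602 against wild type. CKI and vehicle libraries share only number 2 (r = -0.048), so the block compares libraries that have no known link.

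With 3 libraries per group the spread between libraries limits what can be called.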
